A study of Homo sapiens with 9 samples.

Results

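Cellular zinc handling was followed through 10 genes, chosen by name and with their levels in these libraries already known. They encode 4 zinc importers (SLC39A8, SLC39A14, SLC39A6 and SLC39A10), 2 exporters (SLC30A1 and SLC30A10), the zinc-sensing transcription factor MTF1 and 3 metallothioneins (MT1E, MT1X and MT2A). All 10 were among the 60683 genes of the count data, and 8 of them were among the 16159 genes that passed the filter on low counts. MT1E and SLC30A10 did not pass. The cells were labelled HCT 15, a colorectal adenocarcinoma line, with a wild type genotype in every group. The first group of 3 libraries came from cells grown in oxaliplatin, a platinum drug that forms adducts on DNA. Per the labels, these cells received 0.5 µM for 7 days, then 1, 2 and 4 µM between days 10 and 30, and stayed in 4 µM afterwards. The second group of 3 libraries came from cells made resistant to sorafenib, an inhibitor of RAF and receptor tyrosine kinases, in a like manner, with doses not given in the sources used here. The third group of 3 libraries came from untreated cells. Nothing in the labels says that the libraries of a group came from separate cultures, so the errors and p-values measure the spread between libraries, which may be technical.

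Zinc enters the cytosol through ZIP importers, encoded by the SLC39 genes, and leaves it through ZnT exporters, encoded by the SLC30 genes. Metallothioneins are small cysteine-rich proteins that bind zinc, copper, cadmium and platinum compounds. When free zinc is high, MTF1 binds metal response elements in the promoters of the metallothionein genes and of SLC30A1 and raises their transcription. Colorectal carcinomas often have less metallothionein than normal mucosa, and the proteins have long been studied in resistance to platinum drugs.

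Total counts lay between 15797076 and 20936536 per library, and a count of 0 allowed a level of up to 0.138 to 0.182 CPM, taking 3 counts as the limit, where CPM is a count scaled to its library's total times a TMM factor. Intervals and limits of this kind cover counting error only. The labelled tissue hardly showed in the data: each of 15 colorectal epithelial markers had a median under 1 CPM, 9 of them were at 0 counts in every library, and the highest median was that of EPCAM at 0.643 CPM. These markers summed to 0.608 to 1.14 CPM in oxaliplatin, 0.681 to 1.41 CPM in sorafenib and 1.64 to 8.65 CPM in untreated libraries. VIL1 had 269 counts in all at a median of 0.0917 CPM, so its counts were uneven between libraries. All 12 renal epithelial markers had medians of at least 1 CPM, led by the kidney transcription factor PAX8 at 336 CPM. Their summed level was 1068 to 1111 CPM in oxaliplatin, 970 to 1165 CPM in sorafenib and 665 to 956 CPM in untreated libraries. Among further marker lists, 9 of 10 immune genes and 8 of 10 fibroblast and endothelial genes had medians under 1 CPM. The sums of these lists come mostly from single genes. Of the immune genes, CD68 had 5508 counts over all libraries and CD14, the next, had 40. Of the fibroblast and endothelial genes, COL1A1 had 2622 and PDGFRB 700. The immune markers summed to 20.4 to 57.8 CPM in oxaliplatin, 17.8 to 50.3 CPM in sorafenib and 25.5 to 48.1 CPM in untreated libraries. The fibroblast and endothelial markers summed to 16.6 to 24.7 CPM in oxaliplatin, 4.07 to 5.05 CPM in sorafenib and 11.4 to 48.9 CPM in untreated libraries. In each group a library differed more from the rest than the rest did from each other, by chi-square per degree of freedom. It was 32.4 and 34.1 for oxaliplatin library 3 with libraries 1 and 2, and 17.8 between those. For sorafenib library 1 it was 32.8 and 31.3 with libraries 2 and 3, and 16.9 between those. For untreated library 1 it was 36.3 and 29.9 with libraries 2 and 3, and 26.2 between those. The correlation of untreated library 1 over genes was 0.983 with sorafenib library 1, and 0.979 and 0.981 with untreated libraries 2 and 3. The part of the marker levels in the results was not tested, and values without a library are given where they matter.

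The sequences that MTF1 could read differ between the members, so the 250 bases before the start site are shown for the 3 genes whose known response to zinc runs through MTF1 and which were detected here. They are the RefSeq sequences of the GRCh38.p14 build, 5′ to 3′ on the strand of the gene, and the capitals mark matches to the core of the metal response element, searched as TGCACNC and TGCGCNC on both strands. MT2A lies at chr16:56608334-56608583 (plus strand), MT1X at chr16:56682220-56682469 (plus strand) and SLC30A1 at chr1:211579162-211579411 (minus strand).
MT2A: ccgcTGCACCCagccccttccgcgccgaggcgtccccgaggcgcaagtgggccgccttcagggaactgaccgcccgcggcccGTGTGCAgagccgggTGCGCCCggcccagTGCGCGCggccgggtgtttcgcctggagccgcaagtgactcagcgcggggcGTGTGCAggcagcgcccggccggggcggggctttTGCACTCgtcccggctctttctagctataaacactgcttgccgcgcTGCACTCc
MT1X: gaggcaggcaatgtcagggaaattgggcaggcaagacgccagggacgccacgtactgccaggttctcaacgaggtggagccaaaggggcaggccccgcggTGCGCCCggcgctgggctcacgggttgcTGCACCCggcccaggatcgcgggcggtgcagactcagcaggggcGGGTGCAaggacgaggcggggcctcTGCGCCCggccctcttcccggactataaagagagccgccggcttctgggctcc
SLC30A1: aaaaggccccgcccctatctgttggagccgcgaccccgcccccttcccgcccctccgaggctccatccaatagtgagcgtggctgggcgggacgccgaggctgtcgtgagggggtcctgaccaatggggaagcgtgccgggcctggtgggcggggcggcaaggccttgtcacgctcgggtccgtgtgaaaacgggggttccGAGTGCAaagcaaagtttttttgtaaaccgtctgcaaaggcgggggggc

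MT2A held 7 matches, MT1X 4 and SLC30A1 1, at bases -49 to -43 on the opposite strand. Over 35116 human promoters of this length the median was 0 matches. At least 1 match was found in 24.8% of them, at least 4 in 0.370% and at least 7 in 0.031%. Of the other members, SLC39A6 had 1 match, at bases -17 to -11, and 1 of the 3 SLC39A8 promoters had 1, at bases -119 to -113. MTF1 and the promoters of SLC39A10 and SLC30A10 had none. MT1E and SLC39A14 had no promoter in the reference used, so they were not searched. Matches were also present in promoters of metallothionein genes with 0 counts in all 9 libraries, with 8 in MT1H and 3 in MT1B. A match describes these letters and is no measure of binding.

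**Figure D1:**
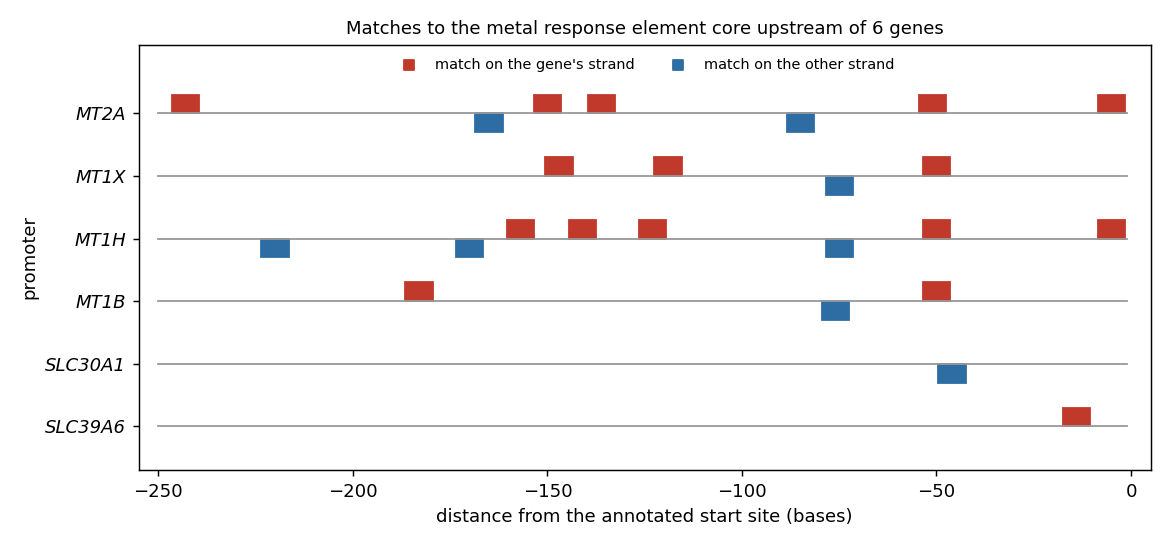
Matches to the core of the metal response element in the 250 bases before the annotated start of 6 genes (x axis, distance from the start site in bases; each row is a gene). Boxes above a line are on the strand of the gene and boxes below it are on the other strand. MT2A (7), MT1X (4) and MT1H (8) carry several matches, while SLC30A1 and SLC39A6 carry 1 each.

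SLC39A8 differed most among the 4 importers chosen. It encodes ZIP8, which carries zinc, manganese, iron and cadmium across the plasma membrane (ENSG00000138821, GRCh38 chr4:102251041-102431258). Its level was 170, 173 and 142 CPM in oxaliplatin libraries 1 to 3, 37.4, 37.7 and 43.6 CPM in sorafenib libraries and 58.7, 42.3 and 47.8 CPM in untreated libraries. Every oxaliplatin library lay far above the other 6, and the sorafenib and untreated libraries overlapped. In such bulk samples a change in the cells present and a change in RNA per cell cannot be told apart. The log2 fold change was 1.70 ± 0.14 (SE) for oxaliplatin against untreated, a 3.26-fold higher level. It was 2.03 ± 0.15 for oxaliplatin against sorafenib and -0.32 ± 0.14 for sorafenib against untreated. Another gene, AC098487.1, shares 3.04% of its exon length on the same strand.

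SLC39A14 encodes ZIP14, the closest relative of ZIP8, which also carries manganese and iron (ENSG00000104635, on chromosome 8). It had 48.6, 106 and 103 CPM in oxaliplatin libraries, 109, 111 and 110.0 CPM in sorafenib libraries and 95.7, 91.2 and 119 CPM in untreated libraries. Oxaliplatin library 1 was the low one, and the other 8 libraries lay between 91.2 and 119 CPM. The log2 fold change for oxaliplatin against untreated was -0.25 ± 0.25, and without oxaliplatin library 1 it was 0.03. For oxaliplatin against sorafenib it was -0.36 ± 0.25, and -0.08 without that library. Sorafenib against untreated gave 0.11 ± 0.25 with overlapping groups, or -0.02 after the correction for exon length and GC content described below. The higher SLC39A8 of the oxaliplatin libraries was thus not accompanied by a higher SLC39A14.

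SLC39A6 and SLC39A10 encode ZIP6 and ZIP10, closely related importers that join in a common complex. SLC39A6 (ENSG00000141424, chr18:36108531-36129385) had 144, 138 and 125 CPM in oxaliplatin libraries, 129, 138 and 144 CPM in sorafenib libraries and 120, 100.01 and 109.9 CPM in untreated libraries. Both drug groups lay above the untreated group without overlap, by narrow margins, with log2 fold changes of 0.30 ± 0.11 for oxaliplatin and 0.32 ± 0.11 for sorafenib. Neither passed the adjusted threshold of 0.05. SLC39A10 (ENSG00000196950, chr2:195575977-195737702) had 131, 128 and 115 CPM in oxaliplatin libraries, 85.9, 109 and 106 CPM in sorafenib libraries and 104, 74.2 and 74.2 CPM in untreated libraries. The oxaliplatin libraries were the 3 highest, and untreated library 1 lay within the sorafenib range. Its log2 fold change was 0.57 ± 0.15 for oxaliplatin against untreated, 0.25 ± 0.15 for sorafenib against untreated and 0.32 ± 0.15 for oxaliplatin against sorafenib. Without untreated library 1 the sorafenib value was 0.43.

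Of the exporters, SLC30A1 was higher with both drugs. It encodes ZnT1, the zinc exporter of the plasma membrane (ENSG00000170385, chr1:211571568-211579161). Its level was 65.7, 81.5 and 70.8 CPM in oxaliplatin libraries, 74.5, 93.3 and 91.7 CPM in sorafenib libraries and 50.2, 41.9 and 48.3 CPM in untreated libraries. All 6 drug libraries lay above all 3 untreated libraries, and the 2 drug groups overlapped. The log2 fold change was 0.64 ± 0.13 for oxaliplatin and 0.89 ± 0.13 for sorafenib, each against untreated, and -0.25 ± 0.13 for oxaliplatin against sorafenib. SLC30A10, which encodes a manganese exporter of liver and brain (ENSG00000196660, chr1:219685427-219958647), had 0 counts in 8 libraries and 2 counts, or 0.111 CPM, in untreated library 2. That is under the limit of 3 counts, so no difference was detectable at this depth.

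MTF1 itself was ordered by group (ENSG00000188786, chr1:37809574-37859592). It had 36.3, 34.1 and 35.2 CPM in oxaliplatin libraries, 23.1, 27.5 and 28.8 CPM in sorafenib libraries and 19.2, 17.6 and 17.6 CPM in untreated libraries. The 3 groups did not overlap, with oxaliplatin highest and untreated lowest. Log2 fold changes were 0.96 ± 0.12 for oxaliplatin against untreated, 0.55 ± 0.12 for sorafenib against untreated and 0.41 ± 0.12 for oxaliplatin against sorafenib.

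The metallothioneins were lower in the oxaliplatin group. MT2A, the main metallothionein of most human cells (ENSG00000125148, chr16:56608584-56609497), had 185, 229 and 203 CPM in oxaliplatin libraries, 443, 407 and 518 CPM in sorafenib libraries and 354, 786 and 700 CPM in untreated libraries. All 3 oxaliplatin libraries lay below the other 6, and untreated library 1 was lower than every sorafenib library. The log2 fold change was -1.58 ± 0.26 for oxaliplatin against untreated, a fold of 0.335, and -1.15 ± 0.26 for oxaliplatin against sorafenib. For sorafenib against untreated it was -0.43 ± 0.25. That value rested on single libraries, being -0.70 without untreated library 1 and -0.21 without untreated library 2. For oxaliplatin against untreated the value without untreated library 1 was -1.85.

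MT1X (ENSG00000187193, chr16:56682470-56684196), another zinc-induced metallothionein, had 5.78, 6.13 and 6.93 CPM in oxaliplatin libraries, 21.0, 18.5 and 16.8 CPM in sorafenib libraries and 11.9, 23.3 and 23.2 CPM in untreated libraries. It followed the order of MT2A, with untreated library 1 again low in its group. Its log2 fold change was -1.63 ± 0.25 for oxaliplatin against untreated, or -1.89 without untreated library 1, and -1.58 ± 0.25 for oxaliplatin against sorafenib. Sorafenib against untreated gave -0.05 ± 0.24 with overlapping groups, and -0.31 without untreated library 1 and 0.10 without untreated library 2. MT1E (ENSG00000169715, chr16:56625475-56627112) had 0 counts in all 9 libraries. Metallothionein genes are near copies of each other, and how multiply aligned reads were counted is not given in the sources used here, so the split of reads among them is uncertain. AC026461.1 also shares 18.1% of the exon length of MT1X on the same strand.

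Among the metallothionein genes that passed the filter, nearly all counts were given to MT2A in every group. Of the counts given to MT2A, MT1X and MT1F together, the share of MT2A was 96.9%, 97.3% and 96.4% in oxaliplatin libraries, 95.4%, 95.6% and 96.7% in sorafenib libraries and 96.7%, 97.0% and 96.7% in untreated libraries. Exact binomial 95% intervals ran from 95.7% to 97.7% over the oxaliplatin libraries, from 94.9% to 97.1% over the sorafenib libraries and from 96.2% to 97.3% over the untreated libraries. The shares overlapped between groups, although the summed level of these genes was 191 to 235 CPM in oxaliplatin, 425 to 536 CPM in sorafenib and 366 to 810 CPM in untreated libraries. MT1F had 0.388 ± 0.197 CPM in oxaliplatin, 0.474 ± 0.102 CPM in sorafenib and 0.694 ± 0.438 CPM in untreated libraries (SD, n = 3 each). The other 9 of the 10 further metallothionein genes listed, MT1A, MT1G, MT1M and MT3 among them, had 0 counts in all 9 libraries. MT1L, also among these 9, is annotated as a pseudogene. Since the counting of multiply aligned reads is not given, these 0 counts are no measure that the genes are silent, and the shares hold for the assigned counts only.

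**Figure D2:**
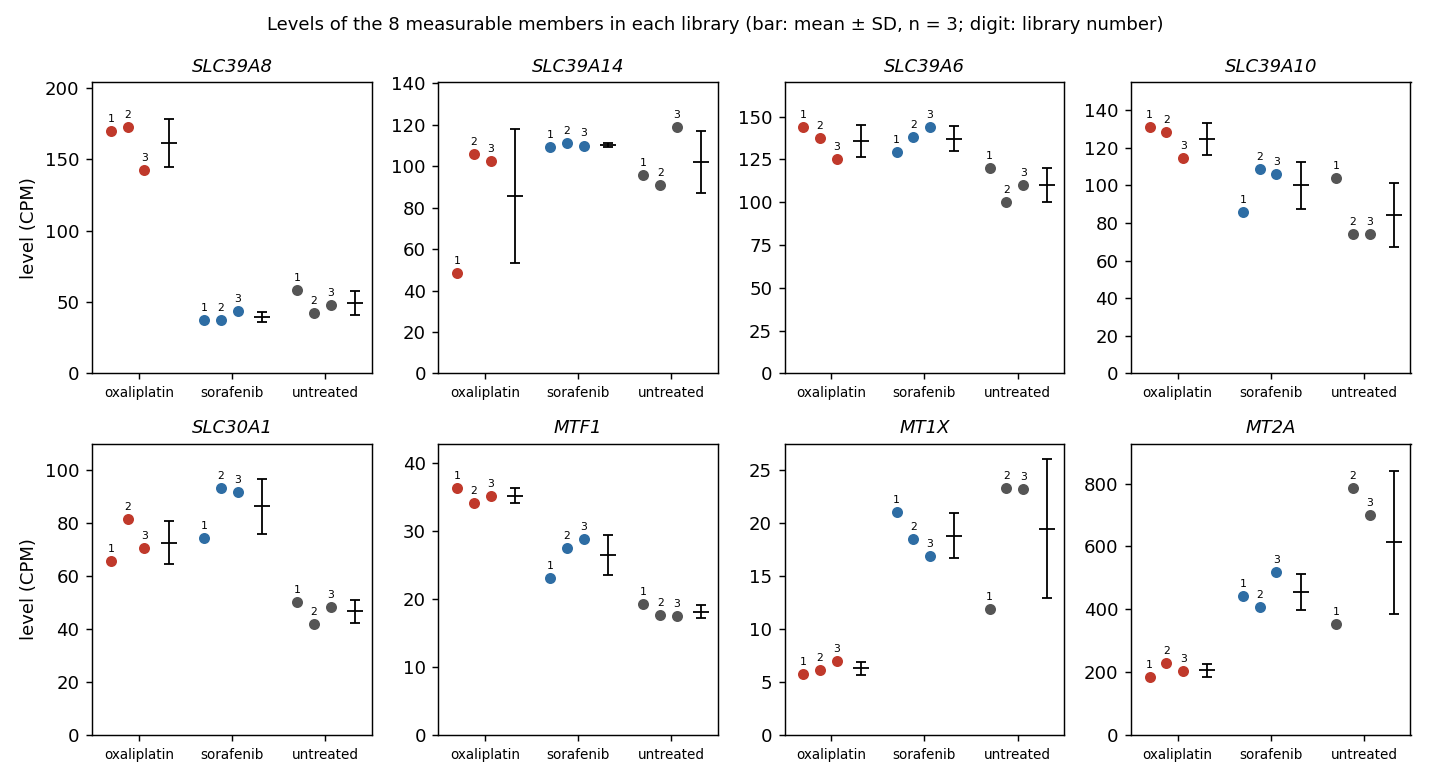
Levels of the 8 members that passed the filter, in CPM, in each library of the oxaliplatin, sorafenib and untreated groups (point, 1 library with its number; bar, mean ± SD, n = 3). SLC39A8 reaches 142 to 173 CPM in oxaliplatin libraries and 37.4 to 58.7 CPM elsewhere, MTF1 falls into 3 separate ranges, and MT1X and MT2A are lowest in oxaliplatin libraries.

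The levels by library show where the groups separate and which single libraries widen a group. SLC39A14 in oxaliplatin spanned a 2.18-fold range because of library 1, and MT2A and MT1X in untreated spanned 2.22-fold and 1.96-fold ranges because of library 1. The other members in the plot spanned at most 1.40-fold within any group.

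Read against the background of all genes, the counts of members need care. For oxaliplatin against untreated, 6 of the 8 tested members passed the adjusted threshold of 0.05 in edgeR's quasi-likelihood test, where 31.7% of all 16159 genes did. By direction, 4 were higher and 2 lower, where 16.2% and 15.5% of all genes were. Of the 8, 7 did not overlap between the groups, where 48.1% of all genes did not. For sorafenib against untreated, SLC30A1 and MTF1 passed, or 2 of 8 where 4.8% of all genes did. Both were higher, where 2.82% of all genes were, and 0 were lower, where 1.97% of all genes were 3 members did not overlap where 29.8% of all genes did not. For oxaliplatin against sorafenib, SLC39A8 passed as higher and MT1X and MT2A as lower, 3 of 8 where 10.3% of all genes did (5.2% higher and 5.07% lower), and 6 did not overlap where 34.9% of all genes did not. Since the members were chosen with these levels known, the counts are a description and nothing is drawn from them. The 2 drug comparisons share the untreated libraries. The background itself moved with single libraries. Without untreated library 2 or 3, or oxaliplatin library 1 or 2, between 2913 and 3311 genes passed for oxaliplatin against untreated, against 5123 with all libraries. For sorafenib against untreated, 775 genes passed with all libraries, and between 113 and 1743 with 1 left out.

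**Figure D3:**
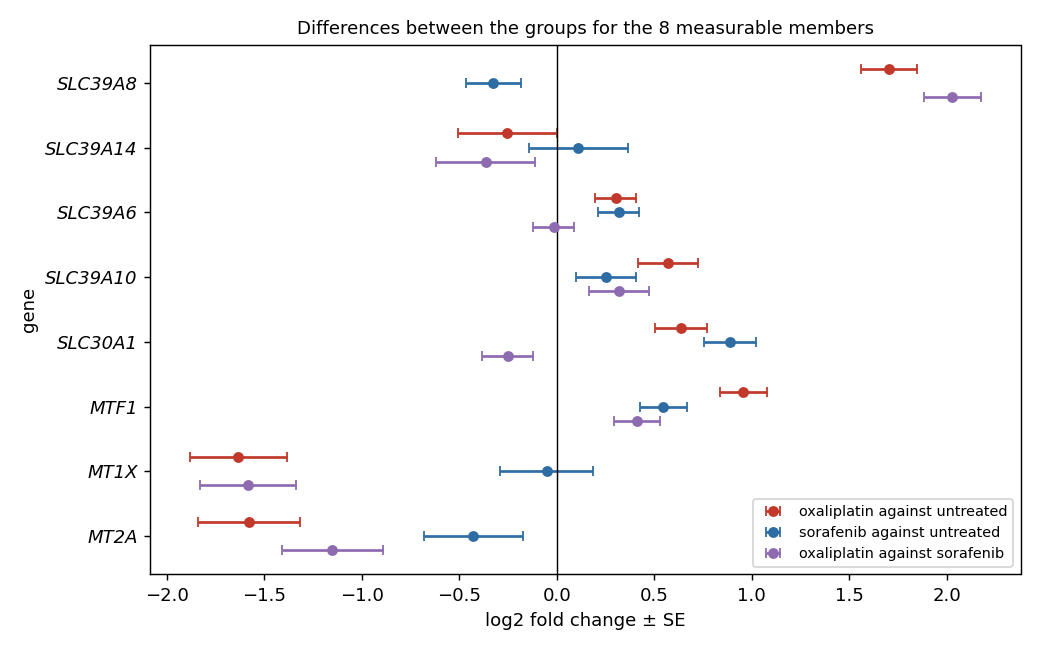
Log2 fold changes ± SE of the 8 members in 3 comparisons, each drug against untreated and oxaliplatin against sorafenib (x axis, log2 fold change; vertical line, no difference). SLC39A8 lies at 1.70 and 2.03 in the comparisons with oxaliplatin and at -0.32 for sorafenib, while SLC30A1 is above 0 for both drugs and MT1X and MT2A lie under -1 in the comparisons with oxaliplatin.

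In the plot of differences, SLC39A8, MT1X and MT2A differ with oxaliplatin, and SLC30A1, SLC39A6 and MTF1 lie above untreated with both drugs. MTF1 also lies in steps between the groups. The means of SLC39A10 had the same order as those of MTF1, but its sorafenib and untreated libraries overlapped. SLC39A14 overlapped with untreated in both drug groups. Exon length moved with both drug comparisons. Tested genes were put in 10 bins of like size by exon length, from bin 1 (shortest) to bin 10 (longest), and the median log2 fold change of oxaliplatin against untreated was higher in the bins of long genes. It was -0.29 in bin 2, which holds MT2A and MT1X, -0.05 in bin 5, which holds SLC39A6, and 0.07 in bin 7, which holds SLC30A1. It was 0.18 in bin 8, which holds SLC39A8, SLC39A14 and SLC39A10, 0.28 in bin 9, which holds MTF1, and 0.45 in bin 10. The median for sorafenib against untreated was -0.13 in bin 1 and 0.26 in bin 10. After a correction of each library for exon length and GC content, SLC39A8 was at 1.47, MTF1 at 0.67, MT1X at -1.46 and MT2A at -1.39 for oxaliplatin against untreated. SLC39A10 came down to 0.22, SLC30A1 to 0.37 and SLC39A6 to 0.20, and SLC39A14 was at -0.47, each a move of over 1.5 times. The same correction put MTF1 at 0.37, SLC30A1 at 0.73 and SLC39A10 at 0.05 for sorafenib against untreated, and MTF1 at 0.30 and SLC39A10 at 0.17 for oxaliplatin against sorafenib. With scaling by library size only, the median log2 fold change of all genes was 0.13, where it was 0.02 with the scaling used here, and MTF1 was at 1.07. Of the genes called for oxaliplatin against untreated, 51.1% were higher with the scaling used here, 65.4% with library size only and 36.2% with the correction for length and GC content. None of the 8 members turned its direction under these scalings in that comparison.

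Compared per kilobase of annotated exon, MT2A was the most abundant of 20 zinc transporter, metallothionein and MTF1 genes in every group. It stood at 158 ± 16.8 CPM per kilobase in oxaliplatin, 351 ± 43.8 in sorafenib and 472 ± 176 in untreated libraries (SD, n = 3 each). SLC39A6 came next in each group, at 36.8 ± 2.55, 37.2 ± 2.04 and 29.9 ± 2.74 CPM per kilobase in oxaliplatin, sorafenib and untreated libraries, and SLC39A1, a ubiquitous importer of the plasma membrane, followed it. In oxaliplatin libraries SLC39A1 overlapped with both SLC39A6 and SLC39A8. SLC39A8 was 4th in oxaliplatin at 24.9 ± 2.59 CPM per kilobase, 15th in sorafenib at 6.11 ± 0.540 and 11th in untreated libraries at 7.65 ± 1.29. In untreated libraries its range overlapped with the next gene, and from rank 3 to rank 14 each gene overlapped with the next. MT1X was 17th in oxaliplatin at 3.54 ± 0.334 CPM per kilobase, 8th in sorafenib at 10.6 ± 1.19 and 6th in untreated libraries at 10.97 ± 3.71. MTF1 stood near the low end, at 4.39 ± 0.139, 3.30 ± 0.372 and 2.26 ± 0.114 CPM per kilobase in oxaliplatin, sorafenib and untreated libraries.

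**Figure D4:**
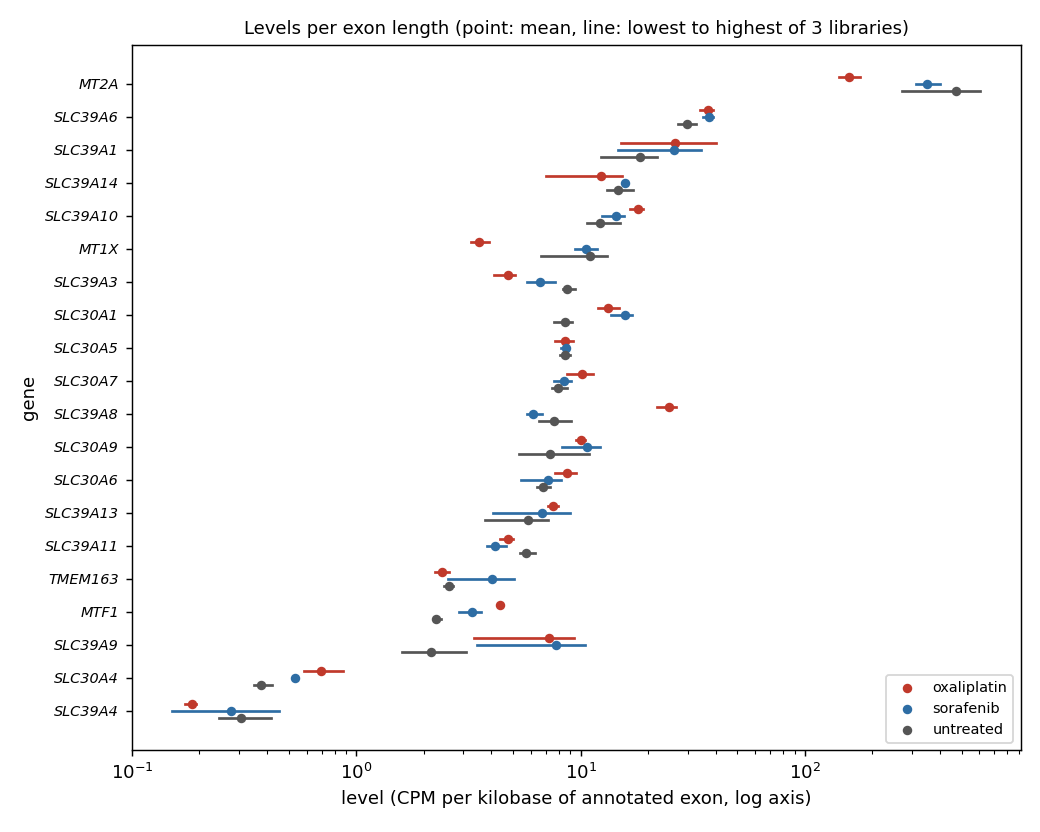
Levels of 20 zinc genes in CPM per kilobase of annotated exon (x axis, log scale), ordered by the untreated mean, in oxaliplatin, sorafenib and untreated libraries (point, mean; line, lowest to highest of 3 libraries). MT2A leads in every group, and SLC39A8 in oxaliplatin stands to the right of its sorafenib and untreated points.

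Other zinc transporters gave the following levels. SLC30A5, which loads zinc into the early secretory pathway, had 49.5 ± 4.58 CPM in oxaliplatin, 49.7 ± 2.21 CPM in sorafenib and 49.4 ± 2.41 CPM in untreated libraries (SD, n = 3 each). SLC30A7, another exporter into the Golgi, had 84.8 ± 11.6, 70.7 ± 6.22 and 66.5 ± 5.42 CPM in the same order of groups. SLC39A1 had 89.1 ± 43.0 CPM in oxaliplatin, 88.3 ± 34.4 CPM in sorafenib and 62.2 ± 17.5 CPM in untreated libraries, with wide spreads, and 60.8% of its exon length is shared on the same strand with AL358472.7. SLC39A4, the importer of intestinal zinc absorption, had 0.934 ± 0.0578, 1.39 ± 0.788 and 1.54 ± 0.490 CPM in oxaliplatin, sorafenib and untreated libraries. SLC39A7, which releases zinc from the endoplasmic reticulum, had 0 counts in all 9 libraries. Since the strand setting and the counting of multiply aligned reads are not given, this 0 is no measure that the gene is silent. Of its neighbours on the chromosome, RXRB had 3466 counts over the 9 libraries, VPS52 708, RING1 74, HSD17B8 5 and HLA-DPB1 0.

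Beyond the members, 56 genes were listed, for short the other zinc genes. They cover zinc, manganese and iron transport, metallothioneins and their pseudogenes, targets and partners of MTF1, and partners of ZIP6 and ZIP10. Not all of them handle metals: SP1, EP300, STAT3 and GSK3B are on the list as such partners. Of the 56, 55 were found, and 27 passed the filter. For oxaliplatin against untreated, 7 of the 27 rose and 3 fell at an adjusted p under 0.05, and their median log2 fold change was 0.02, the same as the 0.02 over all genes tested. That share is close to the 31.7% of all genes that passed, with 16.2% of all genes higher and 15.5% lower, and the same shares apply to each list that follows. The count was 6 without untreated library 2, untreated library 3 or oxaliplatin library 1. Of the further importers, 1 rose and 1 fell among 6 tested, with a median log2 fold change of 0.05. SLC39A3, an importer of the plasma membrane (ENSG00000141873, chr19:2732204-2740028), fell. It had 22.6, 18.7 and 23.3 CPM in oxaliplatin libraries, 34.9, 28.9 and 26.3 CPM in sorafenib libraries and 38.1, 43.2 and 37.9 CPM in untreated libraries. The oxaliplatin libraries were the 3 lowest and the untreated libraries the 3 highest, with a log2 fold change of -0.88 ± 0.14 and an adjusted p of 0.00317 in edgeR's test. It shares 9.58% of its exon length with AC006538.2 on the same strand.

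SLC39A9, an importer of the Golgi and plasma membrane (ENSG00000029364, chr14:69398015-69462390), was uneven. It had 66.9, 23.8 and 64.4 CPM in oxaliplatin libraries, 66.9, 74.6 and 24.5 CPM in sorafenib libraries and 12.4, 11.4 and 22.1 CPM in untreated libraries. The lowest library of each drug was close to the highest untreated library. Its rise of 1.75 ± 0.54 on the log2 scale (edgeR adjusted p = 0.0400) lost its call under 11 of 18 alternatives. The adjusted p was 0.0989, 0.138 and 0.0532 without untreated library 1, 2 or 3, 0.119 and 0.0943 without oxaliplatin library 1 or 3, and 0.0559 and 0.0534 without sorafenib library 1 or 2. It was 0.126 with no filter on low counts and 0.0772 with the correction for length and GC content.

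Of the further exporters, 1 rose among 6 tested, and their median log2 fold change was 0.35. SLC30A4, an exporter into endosomes, known in the mouse for the zinc of milk (ENSG00000104154, chr15:45479606-45522755), had 7.01, 4.72 and 5.05 CPM in oxaliplatin libraries, 4.29, 4.31 and 4.34 CPM in sorafenib libraries and 3.40, 2.82 and 2.86 CPM in untreated libraries. The groups did not overlap, and the log2 fold change for oxaliplatin against untreated was 0.89 ± 0.20 (edgeR adjusted p = 0.0105). It was 0.50 with the correction for exon length and GC content, where the call was lost (edgeR adjusted p = 0.0737).

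Among 5 tested targets and partners of MTF1, 2 rose and 1 fell. EP300, the histone acetyltransferase that acts as its coactivator (ENSG00000100393, chr22:41092592-41180077), had 64.6, 57.5 and 56.8 CPM in oxaliplatin libraries, 21.7, 51.8 and 42.7 CPM in sorafenib libraries and 24.6, 11.8 and 16.8 CPM in untreated libraries. All oxaliplatin libraries were above the rest, with a log2 fold change of 1.75 ± 0.34 against untreated (edgeR adjusted p = 0.00693), and the sorafenib and untreated libraries overlapped. SELENOH, a selenoprotein gene under the control of MTF1 in mouse cells (ENSG00000211450, chr11:57741250-57743554), fell by 0.76 ± 0.17 on the log2 scale (edgeR adjusted p = 0.0101). It had 72.8, 75.4 and 87.3 CPM in oxaliplatin libraries and 114, 152 and 134 CPM in untreated libraries, without overlap. SP1, a general transcription factor of GC-rich promoters (ENSG00000185591, chr12:53380176-53416446), rose by only 0.37 ± 0.12 (edgeR adjusted p = 0.0422). That call was lost without untreated library 2 or 3 (edgeR adjusted p = 0.153 and 0.0960), without oxaliplatin library 1 or 2 (0.118 and 0.10) and without sorafenib library 2 or 3 (0.0559 and 0.0552). With the correction for exon length and GC content SP1 was at 0.04.

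Among 5 tested carriers of manganese and iron, which ZIP8 and ZIP14 also carry, 1 rose and 1 fell. ATP2C1, the calcium and manganese pump of the Golgi (ENSG00000017260, chr3:130850595-131016712), had 133, 136 and 122 CPM in oxaliplatin libraries, 97.1, 90.0 and 91.2 CPM in sorafenib libraries and 77.1, 62.9 and 78.3 CPM in untreated libraries. The 3 groups did not overlap. The log2 fold change was 0.84 ± 0.11 for oxaliplatin against untreated (edgeR adjusted p = 0.00166), or 0.45 with the correction for length and GC content. ATP13A1, a helix dislocase of the endoplasmic reticulum whose yeast relative affects manganese (ENSG00000105726, chr19:19645198-19663676), fell by 0.33 ± 0.11 on the log2 scale (edgeR adjusted p = 0.0395). It had 70.7, 73.6 and 82.6 CPM in oxaliplatin libraries and 86.3, 104 and 95.1 CPM in untreated libraries. The adjusted p was 0.144 and 0.0935 without untreated library 2 or 3, 0.140 and 0.108 without oxaliplatin library 1 or 2, 0.0588 and 0.0589 without sorafenib library 2 or 3, and 0.135 with scaling by library size only, where the value was -0.21.

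Among 4 tested partners of ZIP6 and ZIP10, 2 rose and 0 fell, where 16.2% of all genes rose and 15.5% fell. STAT3, a transcription factor that drives SLC39A6 in fish embryos and breast cancer cells (ENSG00000168610, chr17:42313324-42388568), had 150, 150 and 149 CPM in oxaliplatin libraries, 94.9, 105 and 111 CPM in sorafenib libraries and 95.2, 77.3 and 83.7 CPM in untreated libraries. Oxaliplatin libraries were nearly equal and above all others, with a log2 fold change of 0.81 ± 0.11 against untreated (edgeR adjusted p = 0.00167), or 0.49 with the correction for exon length alone. GSK3B, a kinase that associates with the ZIP6 and ZIP10 complex (ENSG00000082701, chr3:119821321-120094447), rose by 0.39 ± 0.11 (edgeR adjusted p = 0.0277). That call was lost without untreated library 2 or 3 (edgeR adjusted p = 0.105 and 0.0550) and without oxaliplatin library 1 or 2 (0.0901 and 0.0734), and with the correction for exon length and GC content the value was 0.03.

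**Figure D5:**
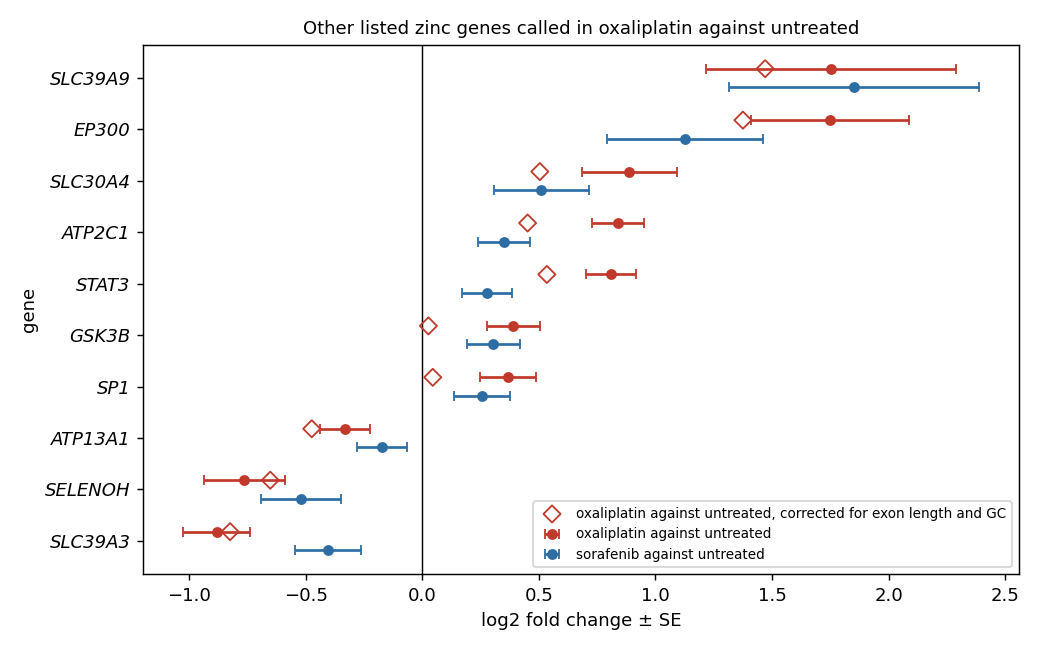
Log2 fold changes ± SE of the 10 other listed genes, metal carriers and partners of the members among them, called for oxaliplatin against untreated, with sorafenib against untreated beside them (x axis, log2 fold change; open diamond, oxaliplatin against untreated after the correction for exon length and GC content). The diamonds of EP300 (1.38) and SLC39A3 (-0.83) lie away from 0, while those of SP1 (0.04) and GSK3B (0.03) lie near it.

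The plot of called genes sets the sorafenib values of the same genes beside those of oxaliplatin; the 2 comparisons share the untreated libraries. For sorafenib against untreated, 0 of the 27 genes passed in edgeR's test, where 4.8% of all genes did. At an unadjusted p under 0.05 in edgeR's test there were 13 of 27, where 25.4% of all genes passed. The like count was 12 of 27 for oxaliplatin against untreated, where 44.2% of all genes passed. For oxaliplatin against sorafenib it was 7 of 27, where 28.0% of all genes passed. DESeq2 called 4 of the listed genes for sorafenib against untreated, where it called 1819 of all genes. The edgeR count for sorafenib against untreated was 4 without untreated library 1, 6 without sorafenib library 1 and 1 without sorafenib library 2. Over all genes the same settings called 1641, 1743 and 139, against 775 with all libraries. For oxaliplatin against sorafenib, 2 of 27 rose, ATP2C1 by 0.49 ± 0.11 (edgeR adjusted p = 0.0235) and STAT3 by 0.53 ± 0.11 (edgeR adjusted p = 0.0158), where 10.3% of all genes passed. Both calls were lost without oxaliplatin library 1 (edgeR adjusted p = 0.0867 for ATP2C1 and 0.0622 for STAT3) and without oxaliplatin library 2 (0.0852 and 0.0509). The ATP2C1 call was also lost without sorafenib library 2 or 3 (0.0734 and 0.0791), and the STAT3 call without sorafenib library 1 (0.0508). With the correction for exon length alone ATP2C1 was at 0.35 (edgeR adjusted p = 0.0768), and with that for length and GC content at 0.31 (edgeR adjusted p = 0.0855), so its call was lost under both.

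The genes whose levels over the 9 libraries were most like those of a member were sought among the 10134 protein-coding genes averaging 5 CPM or more, by Pearson's r of log2 CPM. These values contain the differences between the groups and are a description. For SLC39A8 they were B4GALT1 (0.992), BICC1 (0.991), THBS1 (0.991) and ACO1 (0.989), and 264 genes were over 0.9. For SLC39A14 they were HDHD2 (0.940), PHF10 (0.932), SUPT16H (0.927) and MEX3C (0.920), and 11 genes were over 0.9. For SLC30A1 they were PAQR5 (0.985), HLCS (0.977), TBC1D14 (0.977) and NPC1 (0.974), with 163 genes over 0.9. For MTF1 they were AHNAK2 (0.991), BTBD7 (0.986), BAZ2B (0.984) and HIPK2 (0.984), with 606 over 0.9. For MT2A they were HBEGF (0.988), HSPA5 (0.982), EIF3CL (0.981) and CMAS (0.980). The number over 0.9 was thus higher for MTF1 than for SLC39A8, SLC30A1 and SLC39A14.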

How the data were processed

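The authors deposited integer counts per gene for each library, made with featureCounts on GRCh38 per the submitters' processing notes, which also name DESeq2. Aligner, annotation release, strand setting and the handling of reads with several alignments are not given in the sources used here. The 10 members and all lists were chosen with earlier results of these data known, so members carry no p-value.

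Counts were filtered (filterByExpr) and scaled (TMM, factors 0.944 to 1.05) in R 4.3.3 with edgeR 4.0.16. The 3 group means were fitted together by its robust quasi-likelihood test (2-sided; biological coefficient of variation 0.224; 9 libraries), with Benjamini-Hochberg adjustment over 16159 genes and calls at 0.05. CPM uses the TMM factors. Exon lengths are from GENCODE 29. Named genes were all members, other listed genes called for a drug with a mean of at least 1 CPM, and 10 fixed genes. Alternatives were DESeq2 1.42.0, other scalings, filters and corrections, 2 groups only, a replicate block, and each library left out.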

Additional observations from a re-analysis of the deposited data

How the results depend on the processing

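There were 18 alternatives, 1 of them (the correction for exon length and GC content) chosen after seeing the data. Of 432 log2 fold changes of members, 423 moved by less than that gene's own spread between libraries and 9 by more. No member called in a comparison changed sign there. The 423 is no measure of robustness. Some alternatives leave out a library of the group not compared, or that whole group, which hardly moves a value by construction. A wide spread also hides moves: for oxaliplatin against untreated, SLC39A14 went from -0.25 to 0.03 without oxaliplatin library 1 and is among the 423. Of 216 values of other called zinc genes, 165 kept their call, 51 lost it and 0 changed sign. With 3 libraries per group the spread is poorly known. SLC30A10 was under the limit of 3 counts. MT1E had 0 counts, and since the counting of multiply aligned reads is not given, this is no measure that the gene is silent.

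For oxaliplatin against untreated, 5123 genes were called, and between 2913 and 5403 with 1 library left out. Other zinc genes called numbered 10, 6 with no filter on low counts, and 6 to 11 with 1 library left out. For sorafenib against untreated, 775 genes were called, 1819 by DESeq2, 311 with 2 groups only, 1210 with the correction for length and GC content, and 113 to 1743 with 1 library left out. Other zinc genes called numbered 0, 4 by DESeq2, 1 with that correction, and 0 to 6 with 1 library left out. For oxaliplatin against sorafenib, 1659 genes were called, and 572 to 1949 with 1 library left out. Other zinc genes called numbered 2, 5 by DESeq2, 5 with the correction for exon length, 7 with that for length and GC content, and 0 to 2 with 1 library left out. The cause of these shifts was not tested.

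The replicate numbers in the labels did not pair the libraries: same-numbered libraries had correlations between -0.127 and 0.0534 in their deviations from the group means. With a replicate block, 3773, 184 and 809 genes and 6, 0 and 0 other zinc genes were called in these 3 comparisons, taken in the order above.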
